A study of Fragaria vesca with 24 samples.

Results

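The cold response of ‘NCGR1363’ leaves was measured as the difference between 3 leaf RNASeq libraries made after 42 d at 2 °C and 3 leaf libraries of untreated plants at 0 h. ‘NCGR1363’ is the freezing-susceptible parent, and ‘Alta’ the freezing-tolerant parent, of a woodland strawberry (Fragaria vesca) population in which freezing tolerance was mapped. The 6 libraries are part of 24, which cover crowns and leaves of both parents at 0 h and 42 d in 8 groups of 3 biological replicates. Of the 34006 genes in the count table, 18442 had an abundance of at least 0.5 CPM (counts scaled to a common library size) in 2 or more of the 6 libraries, and these were the genes tested. All plants of these and the other groups were clones rooted from runners and grown for 5 weeks at 20 °C and an 18-hour photoperiod, and only the plants sampled at 42 d were then kept in the cold. By the study's methods the cold was the acclimation regime, which had a shorter day, so that the cold, the shorter day and the greater age of the 42 d plants cannot be told apart in these libraries. The time of day of harvest is not given in the sources used here. Each group is a single clonal genotype, so the values describe this genotype and not susceptible plants in general.

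Plants of temperate species gain freezing tolerance during weeks at low temperatures above freezing, a process called cold acclimation. It is best known from Arabidopsis, where transcription factors of the CBF family and the hormone abscisic acid switch on dehydrins and other cold-regulated proteins, soluble sugars accumulate, membrane lipids are remodelled and photosynthesis is retuned. Leaves must also keep RNA and proteins working in the cold, and RNA helicases, which unwind RNA structures that are more stable at low temperature, and chaperones belong to this side of the response. Gene descriptions were at hand for the 896 predicted genes of the freezing-tolerance interval on chromosome 2, of which 559 had an informative description. The genome-wide response is therefore given in counts and by gene ID, and named genes are those of the interval or of the study's text.

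Library totals ranged from 14713900 to 18487934 counts at 0 h and from 14021026 to 18246139 counts at 42 d. Replicates at 0 h were alike, with Pearson's r of 0.969 to 0.988 over genes on the scale log2(CPM + 0.1), and those at 42 d less so, with r of 0.916 to 0.982. This describes genes, which are not independent replicates. The biological coefficient of variation was 0.253 at 0 h and 0.408 at 42 d, against 0.151 and 0.241 in ‘Alta’ leaves and 0.0798 and 0.116 in ‘NCGR1363’ crowns. The library that stood furthest apart was 42 d replicate 2, in which 3745 of 17107 genes differed more than 2-fold from the mean of replicates 1 and 3. By the same measure the other cold libraries differed in 2558 genes (replicate 1, against a mean that holds replicate 2) and 840 genes (replicate 3), and the 0 h libraries in 1706, 631 and 616 genes (replicates 1, 2 and 3). The libraries called apart here are thus the most distant of each group, 42 d replicate 2 and 0 h replicate 1. The summed level of 706 genes that were at least 20-fold higher in ‘Alta’ leaves than in ‘Alta’ crowns at 0 h was 386940 to 463343 CPM in the 0 h libraries. At 42 d that sum was 193209, 337291 and 230990 CPM in replicates 1, 2 and 3, so that 42 d replicate 2 lay nearest the 0 h libraries by this sum. Over all genes it did not: its r with 0 h replicates 1, 2 and 3 was 0.883, 0.921 and 0.92. The same values were 0.93, 0.911 and 0.914 for 42 d replicate 1 and 0.929, 0.925 and 0.926 for 42 d replicate 3. The sum of 361 crown-enriched genes was 1084 to 1248 CPM at 0 h and 1151, 4173 and 2422 CPM at 42 d. Among markers of other tissues, the 3 egg cell-secreted protein genes had no count in any library and casparian strip membrane protein 1-like was at 0.237 CPM or below, whereas oleosin-B4-like (FvH4_2g13410), listed as a marker of anthers, was at 145 to 206 CPM at 0 h. The 5 green-tissue markers summed to 822, 1193 and 1194 CPM at 0 h and 482, 992 and 588 CPM at 42 d. Their part in the results was not tested, and results are given with and without both libraries that stood apart where that matters.

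After 42 d in the cold, 5784 genes, or 31.4% of those tested, differed from 0 h at an edgeR false discovery rate (FDR, the Benjamini-Hochberg adjusted p over all genes tested) of at most 0.05, and these are the genes called. Transcript levels of 3144 genes (17.0%) were higher and of 2640 genes (14.3%) lower. The median log2 fold change was 1.00 among the higher calls and −1.17 among the lower calls, and it was 0.01 over all genes tested. Changes of at least 2-fold were called for 1561 genes that rose and 1570 that fell. Large decreases were more numerous than large increases: 614 genes fell and 398 rose by at least 2 on the log2 scale, and 262 fell and 153 rose by at least 3. The 3 replicates of each group did not overlap in CPM for 9032 genes, 49.0% of those tested, and 5768 of the 5784 genes called were among these. A further 1609 genes had an estimated change of 2-fold or more without being called.

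**Figure D1:**
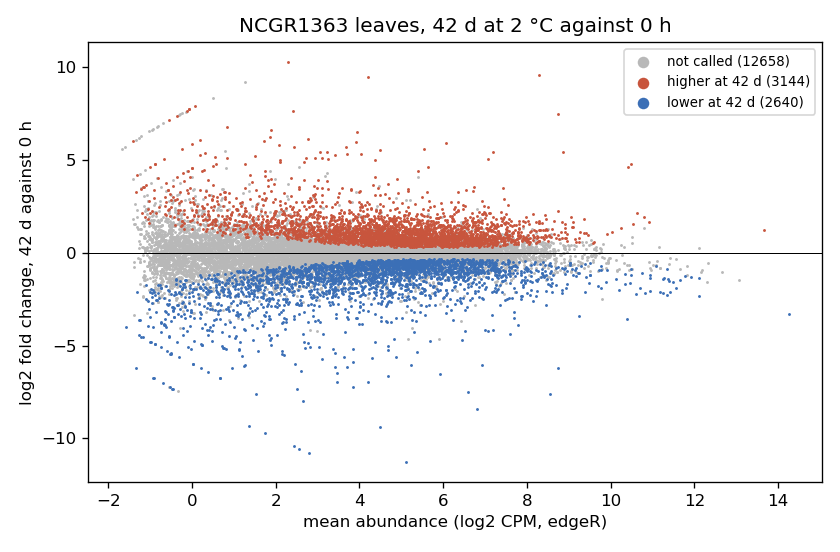
Log2 fold change at 42 d against 0 h (y axis) by mean abundance in log2 CPM (x axis) for the 18442 genes tested in ‘NCGR1363’ leaves. The 3144 genes called higher are red, the 2640 called lower are blue and the others grey, and the most abundant genes lie mostly below 0.

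The change reached the most abundant transcripts. Of the 97 genes with a mean above 1000 CPM, 36 were lower and 10 higher at 42 d, with a median log2 fold change of −0.87. Among genes below 1 CPM, 15.1% were called. The genes called higher made up 11.2% to 12.1% of all transcripts counted at 0 h and 26.9% to 28.1% at 42 d, whereas the genes called lower went from 29.0% to 31.3% at 0 h to 12.7% to 13.1% at 42 d. These shares describe the genes chosen by the test and are no further evidence. Of the 20 genes with most counts at 0 h, 10 were lower and 1 was higher at 42 d, and 10 of the 20 were also among the 20 with most counts at 42 d. Of those 20 with most counts at 42 d, 6 were higher and 2 lower. Over all genes tested, 17.0% were higher and 14.3% lower. Each list was chosen by levels in the libraries tested, which favours a change away from that time, so these counts are no further evidence. The 20 most abundant genes held 13.1% to 14.9% of the counts at 0 h, and 6.95%, 10.5% and 7.73% in 42 d replicates 1, 2 and 3. The calls were spread evenly over the genome, with 30.2% to 32.8% of the tested genes called on each of the 7 chromosomes.

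The number of calls depended on which libraries were in the fit. Without 42 d replicate 2, 7487 of 18309 genes were called (40.9%), 3840 higher and 3647 lower. They included 5501 of the calls made with all 6 libraries, which was 95.1% of the latter and 73.5% of the former, and none changed direction. Without 42 d replicate 2 and 0 h replicate 1 together, a setting chosen after seeing the data, 9873 of 18120 genes were called (54.5%), 4929 higher and 4944 lower. These included 5551 of the original calls, 96.0% of the calls with 6 libraries and 56.2% of those with 4. Leaving out 42 d replicate 3, 0 h replicate 2 or 0 h replicate 3 lowered the count to 2673, 2815 and 2982. Of the 5784 genes, 2402 (1435 higher and 967 lower) were called in each of the 6 fits with 1 library removed as well.

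**Figure D2:**
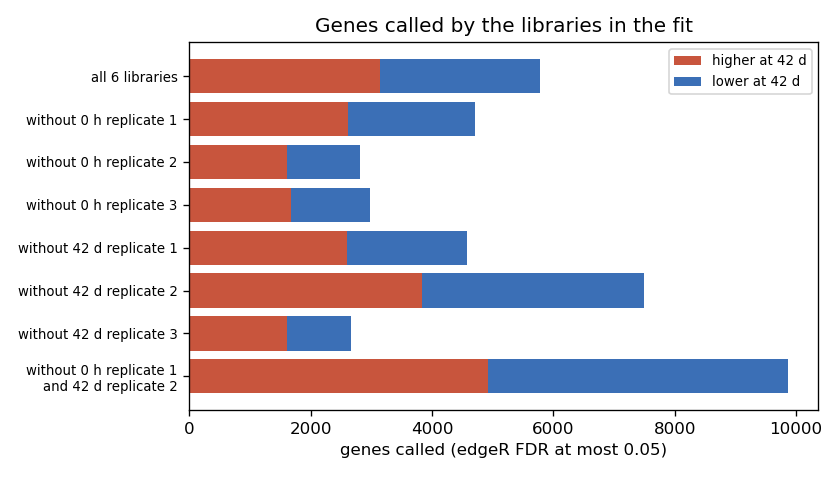
Number of genes called (x axis, from 0) higher (red) and lower (blue) at 42 d for each set of libraries in the fit. The count was 5784 with all 6 libraries, 7487 without 42 d replicate 2 and 9873 without both libraries that stood apart, and fell to 2673 without 42 d replicate 3.

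Genome-wide, the genes with the largest changes among those with a mean of at least 10 CPM have no description in the sources used here. FvH4_1g04000 was at 110, 42.8 and 83.4 CPM at 0 h and at 0, 0.0836 and 0 CPM at 42 d, a single read in all 3 cold libraries (edgeR FDR 8.9e-04). FvH4_6g00090 was at 32.2, 66.6 and 56.3 CPM at 0 h and at 0.0681, 0 and 0.112 CPM at 42 d. Both genes were thus clearly detected in untreated leaves and almost absent after the cold, also in ‘Alta’ leaves, where the first fell from 14.4 to 19.2 CPM to 0.0806 CPM or less. Of the genes that rose, FvH4_2g20400 was at 0.504, 1.19 and 1.21 CPM at 0 h and at 88.1, 1669 and 429 CPM at 42 d, a log2 fold change of 9.57 ± 1.37 (SE, FDR 0.0049). Its neighbour by ID, FvH4_2g20420, went from 0, 0.158 and 0 CPM to 4.97, 84.8 and 38.2 CPM (FDR 0.0073, above 0.05 in 1 of the 6 fits that left out a library). In both genes the 42 d libraries ranked in the same order, with replicate 2 highest and replicate 1 lowest. In all, 70 genes called higher had 3 counts or fewer in each 0 h library, and 99 genes called lower had 3 counts or fewer in each 42 d library.

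In the freezing-tolerance interval, 473 of the 896 genes were tested, 302 had no count in any of the 6 libraries, and 86 were called higher and 66 lower. This was 32.1% of the genes tested, against 31.4% of all genes, and the median log2 fold change of 0.03 was close to the 0.01 of all genes. Without 42 d replicate 2 the calls were 97 higher and 90 lower of 469, where 40.9% of all genes were called. Without both libraries that stood apart they were 124 higher and 118 lower of 466, where 54.5% of all genes were called. Of the 152 genes called, 56 (37 higher and 19 lower) were also called in every fit with 1 library removed. Of the 54 named genes called, 24 lost their call without 0 h replicate 3, 24 without 42 d replicate 3, 23 without 0 h replicate 2, 13 without 0 h replicate 1, 9 without 42 d replicate 1 and 3 without 42 d replicate 2. These numbers include ABR1-like and a quinone-oxidoreductase gene (FvH4_2g18340), which were no longer tested without 42 d replicate 2 or 3. The interval was thus called about as often as the genome. The groups below are described by their counts, to be read against the 17.0% of all genes called higher and 14.3% called lower, and differences between groups were not tested. Genes belong to a group by the words of their descriptions, and a gene may belong to several.

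**Figure D3:**
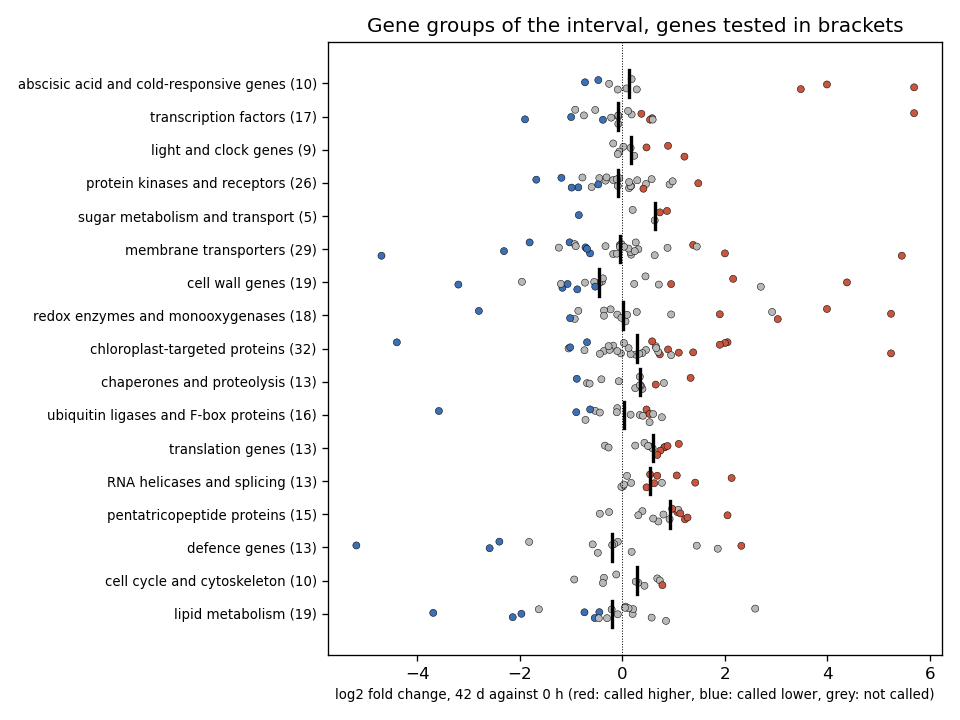
Log2 fold change at 42 d against 0 h (x axis) of the tested interval genes in 17 groups (y axis, genes tested in brackets), with genes called higher in red, called lower in blue and not called in grey, and a black bar at each group's median. No gene was called lower among the translation, RNA helicase and splicing, and pentatricopeptide genes, and none was called higher among the lipid genes.

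Of the 13 RNA helicase and splicing genes, all tested, 7 were called higher and none lower (53.8%, against 17.0% of all genes called higher and 31.4% in either direction), with a median log2 fold change of 0.54, and 5 of the 7 calls were also made in each fit that left out a library. DEAD-box ATP-dependent RNA helicase 39 (FvH4_2g12870), whose Arabidopsis counterpart acts on chloroplast ribosomal RNA, was at 51.5, 62.7 and 62.4 CPM at 0 h and at 232, 281 and 245 CPM at 42 d. Its log2 fold change was 2.13 ± 0.12 (SE, edgeR FDR 8.9e-04). DEAD-box helicase 47B (FvH4_2g15280) was at 60.2, 51.8 and 61.7 CPM at 0 h and at 165, 134 and 156 CPM at 42 d, a log2 fold change of 1.42 (FDR 0.0022). Helicase 29 (FvH4_2g15160) rose from 42.2 to 49.2 CPM to 87.5 to 104 CPM (1.06 on the log2 scale, FDR 0.0025). In each of these helicases the lowest 42 d library was well above the highest 0 h library, and 42 d replicate 2 did not stand apart. The splicing factor 3A subunit 3-like gene (FvH4_2g12040), a spliceosome component, was at 1.01 to 1.26 CPM at 0 h and 1.67 to 2.04 CPM at 42 d and was not called (FDR 0.10). Over the 13 genes, the summed level was 692, 756 and 779 CPM at 0 h and 1124, 1236 and 1139 CPM at 42 d. The count was again 7 higher and none lower of 13 without 42 d replicate 2, where 40.9% of all genes were called. Without both libraries that stood apart it was 6 higher and none lower of 13, where 54.5% of all genes were called.

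Of 17 translation genes 13 were tested, and 7 were higher and none lower (53.8% called, against 31.4% of all genes), with a median log2 fold change of 0.59. Only 2 of the 7 calls were also made in each fit that left out a library. The glutamate-tRNA ligase of chloroplasts and mitochondria (FvH4_2g14910), which charges the tRNA for glutamate, was at 165, 132 and 149 CPM at 0 h and at 333, 261 and 342 CPM at 42 d (log2 fold change 1.10 ± 0.18, FDR 0.0074). The ribosomal protein gene L3 (FvH4_2g13300) was at 636, 468 and 414 CPM at 0 h and at 1002, 765 and 877 CPM at 42 d, a change of 0.82 (FDR 0.042, called in 2 of the 6 fits that left out a library). L32-1 (FvH4_2g18030), also of the large subunit, was at 139, 117 and 107 CPM and then 254, 180 and 222 CPM (0.88, FDR 0.019, 3 of 6 fits). In these 3 genes the groups did not overlap, and 42 d replicate 2 was the lowest of the cold libraries. The tested translation genes summed to 1479 to 1657 CPM at 0 h and to 2225 to 2480 CPM at 42 d. The count was also 7 higher and none lower without 42 d replicate 2, where 40.9% of all genes were called. Without both libraries that stood apart it was 9 higher and 1 lower, where 54.5% of all genes were called.

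Pentatricopeptide repeat proteins bind and process organelle RNA. Of 15 tested, 6 were higher and none lower, against 31.4% of all genes called in either direction, with the highest group median of 0.92, although only 1 of the 6 calls was made in every fit that left out a library. That gene, the At4g35130 homolog (FvH4_2g15700), named as chloroplast-targeted, was at 1.76, 2.45 and 2.17 CPM at 0 h and at 8.91, 9.78 and 7.39 CPM at 42 d (log2 fold change 2.05 ± 0.24, FDR 0.0027). The At2g03880 homolog (FvH4_2g16980, 1.27, FDR 0.036) and the At1g34160 homolog (FvH4_2g12730, 1.22, FDR 0.029) were called in 2 and 1 of those 6 fits. The 3 replicates of each group did not overlap for 10 of the 15 genes, all higher at 42 d, against 49.0% of all genes in either direction. The 15 genes are of low abundance, and their sum was 55.4 to 59.4 CPM at 0 h and 114, 91.1 and 108 CPM at 42 d.

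Among genes of abscisic acid and the cold, alcohol dehydrogenase (FvH4_2g14760), an enzyme of fermentation that is induced by cold and low oxygen in many plants, had the most precise large increase. It was at 4.22, 4.74 and 3.12 CPM at 0 h and at 58.5, 78.3 and 54.0 CPM at 42 d, a log2 fold change of 3.99 ± 0.22 (FDR 8.6e-04). Every cold library was more than 10-fold above the 0 h libraries, and the call was kept in the 6 fits that left out a library. Its neighbour and homolog, alcohol dehydrogenase-like (FvH4_2g14750), was at 53.0, 71.1 and 78.0 CPM at 0 h and at 61.0, 108 and 71.8 CPM at 42 d, with overlapping groups (0.28, FDR 0.40). Reads shared by the pair were divided by the authors' mapping software, so the split between them is uncertain.

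The other increases of this group were of low and uneven transcripts. AFP2-like (FvH4_2g18440), of a family that restrains abscisic acid signalling in Arabidopsis, was at 0.395 to 0.441 CPM at 0 h and at 1.57, 8.03 and 4.82 CPM at 42 d (3.48 ± 0.64, FDR 0.011, called in 5 of the 6 fits that left out a library). ABR1-like (FvH4_2g13240), an ethylene-response-factor type regulator linked to abscisic acid, was at 0.0867 to 0.316 CPM at 0 h and at 0.408, 21.4 and 14.1 CPM at 42 d. Its log2 fold change of 5.69 ± 1.42 (FDR 0.027) was called in 1 of the 4 fits that left out a library and could test it, and 42 d replicate 1 was near the 0 h level. The 2 members that fell included UPF0496 protein 4 (FvH4_2g13680), a BYPASS1-like gene, which was at 33.1, 37.9 and 41.8 CPM at 0 h and at 18.5, 29.7 and 19.0 CPM at 42 d (−0.73, FDR 0.034, called in 1 of the 6 fits that left out a library). In all, 3 of 10 tested genes of the group were higher and 2 lower (5 of 10 called, against 31.4% of all genes), with a median of 0.13. The dehydrin COR47-like gene of the interval (FvH4_2g16030), of a family that protects membranes and proteins from water loss, had no count in any of the 6 libraries, and the gene FvH4_2g09610 outside the interval was at 0.836 CPM or below and was not tested.

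Of 9 light and clock genes tested, 3 were higher and none lower, a share of 33.3% that is near the 31.4% of all genes. GIGANTEA (FvH4_2g13030), a clock-associated protein that links day length to flowering and has been tied to freezing tolerance in Arabidopsis, was at 205, 262 and 278 CPM at 0 h and at 479, 689 and 527 CPM at 42 d (1.21 ± 0.18, FDR 0.0054). It cycles over the day and depends on day length in other plants, and any part of the harvest time, which is not given in the sources used here, was not tested, while the shorter day cannot be told apart from the cold. EXECUTER 1 (FvH4_2g11660), which relays singlet oxygen signals from chloroplasts, was at 108, 141 and 139 CPM and then at 199, 278 and 229 CPM (0.89, FDR 0.0092). FRIGIDA-like protein 3 (FvH4_2g17450) rose by 0.47 (FDR 0.022, called in 3 of 6 fits that left out a library).

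Of 32 genes of chloroplast-targeted proteins tested, 9 were higher and 3 lower (37.5% called, against 31.4% of all genes), with a median of 0.29. The count was 8 higher and 6 lower without 42 d replicate 2, where 40.9% of all genes were called. Without both libraries that stood apart it was 9 higher and 8 lower, where 54.5% of all genes were called. The largest decrease was that of carbonic anhydrase 2-like (FvH4_2g14190), an enzyme that interconverts carbon dioxide and bicarbonate. Its description does not name the chloroplast, so its place in this group is uncertain. The gene was at 870, 156 and 233 CPM at 0 h and at 21.4, 20.9 and 17.5 CPM at 42 d. The log2 fold change was −4.40 ± 0.74 (FDR 0.0081), with a wide spread at 0 h, where replicate 1 was highest, and almost none at 42 d. It was −3.29 without both libraries that stood apart. Fructose-1,6-bisphosphatase (FvH4_2g11590), a step of sugar synthesis, was at 74.1, 94.4 and 98.5 CPM at 0 h and at 112, 189 and 134 CPM at 42 d (0.73, FDR 0.037, called in 2 of 6 fits that left out a library). Thioredoxin M-type (FvH4_2g14900), a redox regulator of chloroplast enzymes, was at 796, 1128 and 1049 CPM and then at 533, 1087 and 661 CPM and was not called (FDR 0.36), but it was called lower without 42 d replicate 2 (−0.66, FDR 0.039).

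A tandem set of putative quinone-oxidoreductase genes, also named as chloroplast-targeted, went in both directions. FvH4_2g18320 fell, from 94.7, 116 and 114 CPM to 47.2, 59.7 and 50.3 CPM (−1.02, FDR 0.0029). FvH4_2g18350 was at 26.9 to 28.8 CPM at 0 h and at 48.8, 187 and 74.0 CPM at 42 d (1.90, FDR 0.027, called in 2 of 6 fits that left out a library). FvH4_2g18340 was at 0.237 CPM or below at 0 h and at 0.272, 13.5 and 4.65 CPM at 42 d (FDR 0.035, called in 1 of 4 such fits), and its fitted change rests on 1 to 3 reads in each 0 h library. The first and second of these were singled out after their values were seen. Reads of near-identical copies can be divided wrongly among them.

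Of the sugar genes only 5 were tested, with 2 higher and 1 lower (60.0% called, against 31.4% of all genes). Monosaccharide-sensing protein 2 (FvH4_2g16850), a sugar carrier of the vacuole membrane in Arabidopsis, rose from 46.1, 39.7 and 41.4 CPM to 76.1, 71.0 and 80.5 CPM (0.87 ± 0.13, FDR 0.0051), a call kept in the 6 fits that left out a library. Alpha-galactosidase 1-like (FvH4_2g12370), which splits galactose from raffinose-type sugars, was at 72.6, 57.5 and 66.3 CPM and then at 44.0, 26.7 and 36.3 CPM (−0.85, FDR 0.034, called in 2 of 6 such fits). SWEET1-like (FvH4_2g14860), described as a bidirectional sugar transporter, was at 50.0, 55.3 and 57.9 CPM at 0 h and at 60.7, 119 and 69.1 CPM at 42 d, with groups that did not overlap but no call (0.63, FDR 0.097).

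Of 29 membrane transporter genes tested, 3 were higher and 7 lower (34.5% called, near the 31.4% of all genes), and the 7 include an oleoyl-acyl carrier protein thioesterase, a lipid enzyme that entered by its name. The largest increase was that of ABC transporter G family member 22-like (FvH4_2g14330), whose Arabidopsis counterpart acts in stomatal control. It was at 0.756, 0.0791 and 0.520 CPM at 0 h and at 28.5, 5.52 and 26.3 CPM at 42 d, a log2 fold change of 5.45 ± 0.92 (FDR 0.0081). The cold libraries were all above those at 0 h, and the call was kept in the 6 fits that left out a library. Probable anion transporter 5 (FvH4_2g16800) went the other way, from 4.16, 6.01 and 7.72 CPM to 0.204, 0 and 0.392 CPM (−4.70 ± 0.77, FDR 0.0072). TRANSPARENT TESTA 12-like (FvH4_2g14370), of a family that carries flavonoids and other metabolites into the vacuole, fell from 37.2, 18.3 and 21.1 CPM to 9.53, 1.59 and 3.86 CPM (−2.31, FDR 0.043), a call made in 2 of the 6 fits that left out a library. Lysine histidine transporter-like 7 (FvH4_2g16052), of an amino acid carrier family, fell from 8.50, 13.5 and 9.45 CPM to 2.93, 2.68 and 3.14 CPM (−1.81, FDR 0.0044). The aquaporin PIP2-7 (FvH4_2g15440), a water channel of the plasma membrane, was at 319, 367 and 322 CPM and then at 267, 439 and 278 CPM, and vacuolar iron transporter homolog 2-like (FvH4_2g13960) at 1.26, 2.93 and 0.954 CPM and then at 1.91, 1.17 and 1.74 CPM. Neither was called (FDR 0.96 and 0.95). The neighbour of PIP2-7, FvH4_2g15450, which the study also lists as an aquaporin, was at 100, 111 and 106 CPM and then at 73.8, 125 and 78.7 CPM (FDR 0.53), and any reads that the pair share can be divided wrongly between them.

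Cell wall genes had the lowest group median, −0.45, with 3 higher and 5 lower of 19 tested (42.1% called, against 31.4% of all genes). Expansin-like A2 (FvH4_2g16110), of a family of wall-loosening proteins, rose from 3.78, 5.30 and 5.38 CPM to 15.1, 21.8 and 26.3 CPM (2.16 ± 0.26, FDR 0.0029), a call kept in the 6 fits that left out a library. Putative laccase-9 (FvH4_2g12590), of a family of copper oxidases that polymerise lignin precursors, was at 5.54, 3.79 and 3.73 CPM at 0 h and at 149, 3.43 and 113 CPM at 42 d. Its groups overlapped because 42 d replicate 2 was below the 0 h libraries, and the log2 fold change of 4.38 ± 1.23 (FDR 0.04) was called in 1 of the 6 fits that left out a library. Without that library it was 4.97 (FDR 7.3e-04). The neighbouring laccases gave no common direction: a second laccase-9 gene (FvH4_2g12570) was at 0.504 CPM or below at 0 h and 0.817, 0.92 and 3.42 CPM at 42 d and was not called (FDR 0.062), and laccase-14-like (FvH4_2g12620) was at 137, 34.3 and 42.7 CPM and then at 103, 3.26 and 46.8 CPM (FDR 0.79). In laccase-14-like, 42 d replicate 2 was again the low library and 0 h replicate 1 the high one, and xylem cysteine proteinase 1 (FvH4_2g16940), a marker of maturing xylem, had the same order of libraries within each group, at 182, 61.7 and 69.0 CPM at 0 h and 108, 13.7 and 68.4 CPM at 42 d. Any part of xylem content in these values was not tested. Putative glycine-rich cell wall structural protein 1 (FvH4_2g18220) fell from 2.52, 1.11 and 2.86 CPM to 0.0681, 0.334 and 0.28 CPM (−3.20, FDR 0.014, called in 4 of 6 such fits). The tested wall genes summed to 2543 to 2888 CPM at 0 h and 1340 to 1807 CPM at 42 d.

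Of 19 lipid genes tested, 6 were lower and none higher, a share of 31.6% that is near the 31.4% of all genes. The count was 9 lower and none higher without 42 d replicate 2, where 40.9% of all genes were called. Without both libraries that stood apart it was 9 lower and 4 higher, where 54.5% of all genes were called. None of the 6 calls was made in every fit that left out a library. The putative lipid-transfer protein DIR1 (FvH4_2g17820), known in Arabidopsis for a role in systemic resistance, was at 123, 55.6 and 82.5 CPM at 0 h and at 11.7, 1.00 and 6.83 CPM at 42 d (−3.69 ± 0.81, FDR 0.018, 4 of 6 such fits). Oleosin-B4-like (FvH4_2g13410), of a family that coats oil bodies, was at 145, 184 and 206 CPM and then at 54.3, 16.6 and 46.1 CPM (−2.14, FDR 0.016, 3 of 6 fits). HMG-CoA reductase catalyses the first committed step of cytosolic isoprenoid synthesis. The reductase 1-like gene FvH4_2g17100 fell from 32.7, 40.9 and 29.2 CPM to 6.33, 15.6 and 4.37 CPM (−1.97, FDR 0.022, 1 of 6 fits). Its neighbour FvH4_2g17060 was at 6.25 to 7.69 CPM at 0 h and at 1.36, 4.52 and 0.784 CPM at 42 d and was not called with all 6 libraries (FDR 0.093) but was called lower without 42 d replicate 2 (−2.60, FDR 0.0037). The reductase 2-like gene FvH4_2g17051 was at 20.9 to 23.2 CPM at 0 h and 17.8 to 21.8 CPM at 42 d (FDR 0.65).

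Of 13 defence genes tested, 3 were lower and 1 higher, a share of 30.8% that is near the 31.4% of all genes. Lysozyme D-like (FvH4_2g18210), named for an enzyme that cleaves bacterial walls, was at 3.02, 6.17 and 4.86 CPM at 0 h and at 0, 0.334 and 0.056 CPM at 42 d (−5.19 ± 0.86, FDR 0.0077). The putative disease resistance protein RGA3 (FvH4_2g17640), of the family of intracellular immune receptors, fell from 1.13, 2.77 and 1.65 CPM to 0.204, 0.334 and 0.336 CPM (−2.59, FDR 0.012), and the TMV resistance protein N-like gene (FvH4_2g14031) fell by 2.40 on the log2 scale (FDR 0.012, called in 5 of the 6 fits that left out a library). Near-identical resistance genes can share reads. Outside this group, membrane protein of ER body 2 (FvH4_2g18580), whose name refers to the defence-related ER bodies of the mustard family, was at 3.46, 4.43 and 9.45 CPM at 0 h and had no count in any 42 d library. Against a floor of 3 counts in each 42 d library this is at least 27.8-fold lower (FDR 0.0056). Senescence-associated carboxylesterase 101-like (FvH4_2g18461), of a family of immune signalling proteins, fell from 3.65, 4.19 and 2.69 CPM to 0.408, 0.251 and 0.56 CPM (−3.03, FDR 0.0043).

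Among oxidoreductases, 4 of 18 tested were higher and 2 lower (33.3%, near the 31.4% of all genes). Without 42 d replicate 2 the count was 4 each of 17, where 40.9% of all genes were called. Probable flavin-containing monooxygenase 1 (FvH4_2g16430), whose Arabidopsis namesake makes the immune signal N-hydroxypipecolic acid, was at 2.27, 1.5 and 4.68 CPM at 0 h and at 22.3, 17.5 and 27.2 CPM at 42 d (3.03 ± 0.44, FDR 0.0052). Cytochrome P450 87A3-like (FvH4_2g16500) was at 78.4, 133 and 128 CPM at 0 h and at 27.3, 191 and 47.0 CPM at 42 d. It was not called (−0.36, FDR 0.73), since replicate 2 was above and replicates 1 and 3 below the 0 h libraries, and without that library it was called lower (−1.53, FDR 0.014). The L-ascorbate oxidase homolog (FvH4_2g16000), an apoplastic enzyme that oxidises ascorbate, was at 51.1, 29.6 and 18.8 CPM and then at 19.8, 11.4 and 22.9 CPM (FDR 0.19).

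**Figure D4:**
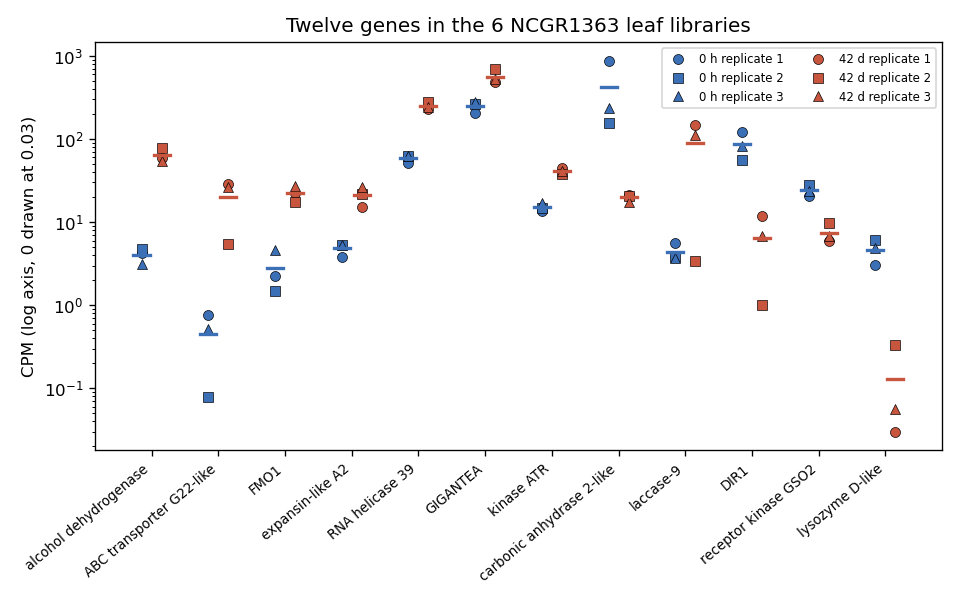
Level in CPM (log y axis, 0 drawn at 0.03) of 12 genes in each library, with 0 h in blue and 42 d in red, a symbol for each replicate and a bar at each group's mean. Alcohol dehydrogenase, helicase 39 and kinase ATR show tight groups that lie apart, while in laccase-9 and DIR1 42 d replicate 2 (square) lies well below the other cold libraries.

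Of 26 protein kinase and receptor genes tested, 2 were higher and 5 lower (26.9% called, against 31.4% of all genes). Kinase ATR (FvH4_2g15770), which responds to stalled DNA replication, rose from 13.5, 14.9 and 16.8 CPM to 44.5, 38.4 and 41.2 CPM (1.48 ± 0.13, FDR 0.0016). The receptor-like kinase GSO2 (FvH4_2g12120), needed with its homolog for the embryo cuticle and the root barrier in Arabidopsis, fell from 20.9, 28.3 and 23.8 CPM to 5.85, 9.78 and 6.83 CPM (−1.68 ± 0.22, FDR 0.0036). RCH1 (FvH4_2g14410), a receptor-like kinase, fell from 73.1, 77.2 and 79.2 CPM to 40.2, 22.4 and 35.6 CPM (−1.19, FDR 0.013, called in 4 of the 6 fits that left out a library). OXI1 (FvH4_2g18040), a kinase of oxidative stress signalling, was at 26.2, 16.0 and 18.8 CPM and then at 9.94, 8.70 and 11.6 CPM (−0.99, FDR 0.029, 2 of 6 fits). CTR1 (FvH4_2g15800), which represses ethylene signalling, was at 34.1, 29.8 and 28.4 CPM and then at 24.7, 42.2 and 33.4 CPM, with overlapping groups (FDR 0.65). Phytosulfokine receptor 2 (FvH4_2g13190), which binds a peptide growth signal, was at 6.74, 6.56 and 7.80 CPM and then at 1.5, 6.19 and 1.96 CPM and was not called (−1.13, FDR 0.15), whereas it was called lower without 42 d replicate 2 (−1.95, FDR 0.0037).

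Of 17 transcription factor genes tested, 4 were higher and 3 lower (41.2% called, against 31.4% of all genes), and none of the 7 calls was made in every fit that left out a library. NAC transcription factor 29 (FvH4_2g16180), of a family prominent in senescence and stress, was at 21.1, 35.0 and 21.0 CPM at 0 h and at 2.52, 11.0 and 7.0 CPM at 42 d (−1.90 ± 0.51, FDR 0.034, called in 2 of the 6 fits). Of the neighbouring NAC78-like genes, FvH4_2g13330 fell from 226, 265 and 248 CPM to 180, 188 and 189 CPM (−0.38, FDR 0.038, called in 1 of 6 fits), and FvH4_2g13320 was at 12.5 to 16.4 CPM and then at 12.5, 6.52 and 9.18 CPM (FDR 0.22). NAC86-like (FvH4_2g12690) was at 81.8 to 92.3 CPM at 0 h and at 63.4, 106 and 77.7 CPM at 42 d (FDR 0.76). An ethylene-responsive factor-like gene of the At4g13040 type (FvH4_2g18520) fell from 34.6, 24 and 21.7 CPM to 14.5, 11.8 and 13.2 CPM (−1.0, FDR 0.022, called in 4 of the 6 fits).

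Of 13 chaperone and proteolysis genes tested, 2 were higher and 1 lower (23.1% called, against 31.4% of all genes), and all 3 were called in every fit that left out a library. Mitochondrial dnaJ 1-like (FvH4_2g18630), a co-chaperone, rose from 15.6, 17.5 and 17.5 CPM to 32.1, 52.6 and 40.3 CPM (1.33 ± 0.18, FDR 0.0040). FKBP62 (FvH4_2g18150), a peptidyl-prolyl isomerase that works with heat shock proteins, rose from 122, 144 and 144 CPM to 201, 216 and 213 CPM (0.65, FDR 0.0073), and serine carboxypeptidase-like 20 (FvH4_2g17690) fell from 228, 243 and 235 CPM to 120, 125 and 129 CPM (−0.89, FDR 0.0026). Of 16 ubiquitin ligase and F-box genes, 2 were higher and 3 lower (31.2%, near the 31.4% of all genes), with ATL8-like (FvH4_2g16840), of a RING-type ligase family, going from 1.89, 3.00 and 4.16 CPM to 0.0681, 0.167 and 0.448 CPM (−3.58 ± 0.66, FDR 0.011). U-box domain-containing protein 9 (FvH4_2g18070) fell by 0.63 and F-box/LRR-repeat protein 12 (FvH4_2g17281) by 0.90 on the log2 scale (FDR 0.010 and 0.029), the former called in 6 and the latter in 1 of the 6 fits that left out a library. Of 10 cell cycle and cytoskeleton genes tested, 1 was called (10.0%, against 31.4% of all genes). It was cyclin-C1-2-like (FvH4_2g18390), which rose from 20.1 to 24.1 CPM to 32.8 to 43.3 CPM (0.78, FDR 0.011, called in 4 of the 6 fits). None of the 18 retroelement and transposase-like genes reached the level needed for a test, and the most abundant, a ribonuclease H-like gene (FvH4_2g12061), was at 0.954 CPM or below.

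Several genes that the study names were at or near 0 in these leaves. The putative C2H2-family gene FvH4_2g16170 and FvH4_2g12511 had no count in any of the 6 libraries, the methyltransferase-like gene FvH4_2g15840 was at 0.260 CPM or below, and FvH4_2g14690 at 0.112 CPM or below. ORG2-like (FvH4_2g11650) was at 0.189, 3.16 and 0.347 CPM at 0 h and at 0.392 CPM or below at 42 d and was not tested. Dynamin-related protein 3A (FvH4_2g11510), which divides mitochondria and peroxisomes, was at 90.8, 97.8 and 96.5 CPM at 0 h and at 86.2, 79.7 and 81.8 CPM at 42 d. Its groups did not overlap, but the change was small and not called (−0.18, FDR 0.22). These values are of the whole gene, whereas the study lists its isoform t3. That isoform was at 0, 0 and 0.867 CPM at 0 h and at 0.34, 0 and 0 CPM at 42 d and was not tested. Bromodomain-containing protein 9-like (FvH4_2g16690), of a family that reads acetylated histones, rose from 39.4, 41.5 and 41.1 CPM to 58.8, 71.2 and 61.8 CPM (0.67 ± 0.10, FDR 0.005). The uncharacterized gene FvH4_2g12161 fell by 0.86 on the log2 scale (FDR 0.029, called in 2 of 6 fits that left out a library), and kinase At1g18390 (FvH4_2g12540) was not called (FDR 0.72). FvH4_2g15730, which the study lists as a major facilitator superfamily gene, was at 67.0, 88.5 and 97.7 CPM at 0 h and at 47.4, 119 and 69.3 CPM at 42 d and was not called (FDR 0.87). A gene described as a 5-hydroxymethylcytosine-binding protein (FvH4_2g17880) rose from 2.65, 1.03 and 0.867 CPM to 7.83, 7.53 and 6.55 CPM (2.25, FDR 0.017, called in 3 of 6 such fits).

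Isoforms were fitted in the same way, and 4721 of 36431 isoforms tested (13.0%) were called, 2525 higher and 2196 lower, from 4077 genes. In 100 of these genes an isoform was called higher and another lower. The authors' software divided reads among isoforms that share exons, so the levels of single isoforms are less certain than those of genes. Isoform t1 of alcohol dehydrogenase (FvH4_2g14760) held 58.3% to 73.1% of the gene's transcripts at 0 h and 87.0% to 99.1% at 42 d, rising from 1.82 to 3.16 CPM to 53.2 to 68.1 CPM (log2 fold change 4.39, edgeR FDR 0.0032). Isoform t2 was at 1.13 to 1.58 CPM at 0 h and at 5.31, 10.2 and 0.504 CPM at 42 d and was not called (FDR 0.24). In GIGANTEA (FvH4_2g13030) the share of t2 was 54.4% to 60.6% at 0 h and 37.7% to 41.6% at 42 d, while that of t1 was 1.85% to 6.50% and then 11.9% to 13.6%. Isoforms t1, t2 and t4 of GIGANTEA rose by 2.78, 0.63 and 1.82 on the log2 scale (FDR 0.023, 0.047 and 0.014), and t3 rose as well (FDR 0.012). Isoform t1 of helicase 39 (FvH4_2g12870) held 81.4% to 87.5% of the gene's transcripts at 0 h and 87.8% to 88.5% at 42 d, and t3 12.5% to 18.6% and then 10.2% to 10.6%. Its isoform t4 had no count at 0 h and was called higher at 42 d, at 4.08, 3.51 and 2.58 CPM (FDR 0.014). For the aquaporin-listed gene FvH4_2g15450, which was not called as a whole, isoform t3 was called lower (log2 fold change −1.47, FDR 0.015). The share of t3 was 44.0% to 45.8% at 0 h and 16.4% to 20.3% at 42 d. Isoform t1 of that gene was not called (0.31, FDR 0.38).

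‘Alta’ leaves, which share no library with these, offer the most alike comparison. There 10294 of 18435 genes were called (55.8%), and the spread between replicates was smaller. Of 17781 genes tested in both, 2011 were called higher in both genotypes and 1859 lower in both. Calls in the same direction were 68.3% of the ‘NCGR1363’ leaf calls and 38.7% of the ‘Alta’ leaf calls, and 123 genes were higher in ‘NCGR1363’ and lower in ‘Alta’ and 55 the reverse. The difference between the responses was tested as the interaction of genotype and cold over the 12 leaf libraries, positive where the change was more upward in ‘NCGR1363’. It was called for 3398 of 19215 genes (17.7%), with 2039 positive and 1359 negative. Of 3365 such genes tested in each genotype, 1761 had estimates of the same sign, and the estimate was smaller in ‘NCGR1363’ for 1185 of them and larger for 576. Of the remaining 1604 with opposite signs, 178 were called in both genotypes. The count was 5594 genes without 42 d replicate 2, and 1980 without ‘Alta’ 0 h replicate 2, the lowest of the fits with 1 library removed.

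**Figure D5:**
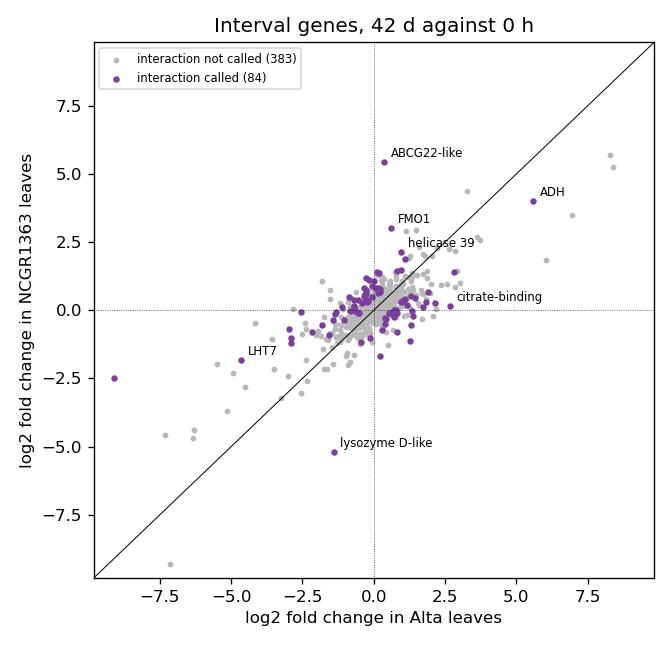
Log2 fold change at 42 d against 0 h in ‘NCGR1363’ leaves (y axis) and in ‘Alta’ leaves (x axis) for 467 interval genes tested in both, with a line of equal change and, in purple, the 84 genes with a called interaction. Alcohol dehydrogenase lies below the line at a rise in both genotypes, and ABCG22-like rises in ‘NCGR1363’ with little change in ‘Alta’.

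Among interval genes the interaction was called for 85 of 491 (17.3%, near the 17.7% of all genes), 51 positive and 34 negative. ABCG22-like (FvH4_2g14330) had the largest positive value among the named genes: it was at 2.03, 2.53 and 2.89 CPM at 0 h and at 4.79, 1.69 and 2.94 CPM at 42 d in ‘Alta’ leaves, where it was not called (FDR 0.48), and the interaction was 5.12 ± 1.00 (SE, FDR 0.0074). FMO1 (FvH4_2g16430) was already at 20.4 to 24.5 CPM in untreated ‘Alta’ leaves and at 37.8, 22.5 and 40.7 CPM at 42 d, so that the range of cold ‘NCGR1363’ leaves held that of untreated ‘Alta’ leaves (interaction 2.46, FDR 0.0081). Helicase 39 (FvH4_2g12870) went from 79.4 to 80.0 CPM to 136 to 161 CPM in ‘Alta’ leaves, a smaller rise than in ‘NCGR1363’ (interaction 1.20 ± 0.15, FDR 0.0011). Helicase 47B (FvH4_2g15280) stayed at 76.7 to 90.4 CPM at 0 h and 87.4 to 90.0 CPM at 42 d in ‘Alta’ (interaction 1.33, FDR 0.0014). In these helicases the ‘NCGR1363’ libraries were below those of ‘Alta’ at 0 h and above them at 42 d.

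The translation genes had 6 positive and no negative interactions among 14 tested, against 17.7% of all genes called in either direction. The glutamate-tRNA ligase gene (FvH4_2g14910) was at 208, 245 and 234 CPM at 0 h and at 223, 172 and 213 CPM at 42 d in ‘Alta’ leaves (interaction 1.29, FDR 0.0048), and L3 (FvH4_2g13300) was at 730, 906 and 836 CPM and then at 597, 653 and 703 CPM (interaction 1.18, FDR 0.015). Chloroplast-targeted proteins had 8 positive and 1 negative of 33, and RNA helicases and splicing genes 3 positive and none negative of 13, shares that were not tested against the 17.7%.

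Among the other named genes, alcohol dehydrogenase (FvH4_2g14760) was at 6.88 to 7.56 CPM at 0 h and at 444, 269 and 333 CPM at 42 d in ‘Alta’ leaves, and its interaction was −1.57 ± 0.30 (FDR 0.0063), so that the rise was smaller in ‘NCGR1363’. The alcohol dehydrogenase-like neighbour (FvH4_2g14750) rose in ‘Alta’ from 83.6 to 89.4 CPM to 245 to 448 CPM (interaction −1.83, FDR 0.0065). CTR1 (FvH4_2g15800) was at 22.6 to 26.6 CPM and then at 38.8, 82.6 and 120 CPM in ‘Alta’ (interaction −1.56, FDR 0.04), and bromodomain-containing protein 9-like (FvH4_2g16690) at 25.1 to 29.2 CPM and then at 74.6, 98.4 and 127 CPM (interaction −1.20, FDR 0.0065). Lysozyme D-like (FvH4_2g18210) fell less in ‘Alta’, from 9.12, 6.17 and 5.78 CPM to 2.72, 3.39 and 1.78 CPM (interaction −3.76, FDR 0.013), and RCH1 (FvH4_2g14410) fell more, from 91.2 to 94.7 CPM to 8.55 to 15.4 CPM (interaction 1.73, FDR 0.0067). The citrate-binding protein-like gene (FvH4_2g13513) was at 4.68 to 5.86 CPM at 0 h and 3.34 to 7.69 CPM at 42 d in ‘NCGR1363’, where it was not called (FDR 0.78), and at 1.21 to 2.71 CPM and then at 7.86, 12.7 and 17.4 CPM in ‘Alta’ (interaction −2.50, FDR 0.014). For AFP2-like (FvH4_2g18440), which reached 20.7 to 25.5 CPM in cold ‘Alta’ leaves, the interaction missed the threshold (−3.45, FDR 0.074), and for expansin-like A2 and GIGANTEA the FDR of the interaction was 0.26 and 0.74.

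In ‘NCGR1363’ crowns, the other tissue of the same genotype, 11264 of 19108 genes were called (58.9%). The median size of the log2 fold change was 0.44 in these crowns and 0.54 in the leaves, and the median SE was 0.12 and 0.24. Any part of the smaller spread between crown replicates in the number of calls was not tested. Of 17697 genes tested in both tissues, 1933 were higher in both and 1482 lower in both, which was 61.7% of the leaf calls and 32.4% of the crown calls, and 172 were higher in leaves and lower in crowns and 268 the reverse. The interaction of tissue and cold over the 12 ‘NCGR1363’ libraries was called for 4144 of 19910 genes (20.8%), 2058 positive (more upward in leaves) and 2086 negative. Of 4012 such genes tested in both tissues, 1844 had estimates of the same sign, with a larger estimate in leaves for 1359 and a smaller one for 485, and 440 of the 2168 with opposite signs were called in both tissues. It was called for 6737 genes without leaf 42 d replicate 2.

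Single genes showed how far levels in the tissues differed before the cold. Alcohol dehydrogenase (FvH4_2g14760) was at 156 to 222 CPM in untreated crowns and at 393 to 484 CPM after the cold, so that cold leaves stayed below untreated crowns although the rise was larger in leaves (interaction 2.63 ± 0.28, FDR 2.4e-04). Thioredoxin M-type (FvH4_2g14900) was at 1.13 to 2.18 CPM in untreated crowns and at 8.85 to 10.7 CPM in cold crowns (interaction −2.92, FDR 7.4e-04). Lysozyme D-like (FvH4_2g18210) rose in crowns, from 1.04, 1.26 and 1.97 CPM to 2.95, 6.37 and 2.69 CPM, and fell in leaves (interaction −6.74 ± 0.91, FDR 8.0e-04). ABCG22-like (FvH4_2g14330) reached 1.07 to 2.03 CPM in cold crowns (interaction 3.96, FDR 0.02), and helicase 39 (FvH4_2g12870) 35.6 to 37.5 CPM (interaction 1.27, FDR 2.9e-04). Among interval genes the tissue interaction was called for 102 of 506 (20.2%, near the 20.8% of all genes), 53 positive and 49 negative.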

How the data were processed

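RNA of leaves and crowns was sequenced from strand-specific TruSeq libraries. The authors trimmed reads with TrimGalore, mapped and quantified them with RSEM and Bowtie2 against predicted mRNAs (F. vesca annotation v4.0.a2), and deposited expected counts per gene and isoform, which were whole numbers and were used as deposited. There were 0 unused per-sample columns. Libraries were grouped by title, because the genotype tag of the ‘NCGR1363’ samples differed from replicate to replicate.

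Differences were tested with edgeR 4.0.16 (limma 3.58.1, R 4.3.3), as a quasi-likelihood F-test in legacy form with TMM factors, for genes at 0.5 CPM or more in 2 or more of the libraries fitted, at an FDR of 0.05 over all genes. Printed CPM use TMM factors over the 24 libraries, log2 fold changes a prior count of 0.125, and the bound for a group with no count a floor of 3 counts per library, which covers counting error only. Interactions were fitted over 12 libraries. P-values weigh the difference between groups against the spread between these 3 biological replicates. How many plants each holds is not given in the sources used here.

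Descriptions of interval genes came from the study's supplement. The reference table of gene names matched no nuclear ID, and no genome of this build was used, so genes are placed by ID and no sequence is printed. Named genes are those of the study's text, up to 3 called genes with the largest change in each group (the most abundant member where none was called), the 8 highest and 8 lowest interval genes called, the 3 highest and 3 lowest interactions of each kind (all with a mean of at least 1 CPM), and 2 IDs in each direction genome-wide. The genes, groups and rules were chosen with earlier results of these data known. Alternatives were DESeq2 1.42.0, other factors, filters and fits, a replicate block, an FDR of 0.01, each library left out, and, chosen after seeing the data, both libraries that stood apart left out. The steps were tested on simulated data. Columns of crowns of ‘Alta’ entered no test of a difference. They served to choose tissue-enriched genes at 0 h, and were among the 24 libraries behind the printed CPM and the comparisons of replicates. The library labelled ‘Alta’ crown 42 d replicate 3 was leaf-like, at 484319 CPM in the leaf-enriched and 719 CPM in the crown-enriched genes. Its effect on the printed CPM was not tested.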

Additional observations from a re-analysis of the deposited data

Results flagged for a closer look

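The cold response of the named genes below differed between ‘NCGR1363’ leaves and ‘Alta’ leaves, or between leaves and crowns of ‘NCGR1363’, by edgeR's test of the interaction (FDR of at most 0.05 over all genes). The list is a selection, made with earlier results of these data known, and is not complete. For example, RCH1, whose interaction against ‘Alta’ leaves is given above, also passed this threshold and is left out. Values are on the log2 scale and positive where the change was more upward in ‘NCGR1363’ leaves.

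Against ‘Alta’ leaves, the interaction was positive for ABCG22-like (FvH4_2g14330, 5.12), lysine histidine transporter-like 7 (FvH4_2g16052, 2.88), vacuolar iron transporter homolog 2-like (FvH4_2g13960, 2.51) and FMO1 (FvH4_2g16430, 2.46). It was smaller for helicase 47B (FvH4_2g15280, 1.33), glutamate-tRNA ligase (FvH4_2g14910, 1.29), helicase 39 (FvH4_2g12870, 1.20), ribosomal protein L3 (FvH4_2g13300, 1.18) and thioredoxin M-type (FvH4_2g14900, 1.10). The 2.88 of lysine histidine transporter-like 7 came from a deeper fall in ‘Alta’ leaves, from 15.6, 33.5 and 25.6 CPM to 2.29, 0.242 and 0.342 CPM. Negative interactions were those of lysozyme D-like (FvH4_2g18210, −3.76), citrate-binding protein-like (FvH4_2g13513, −2.50), phytosulfokine receptor 2 (FvH4_2g13190, −2.38), alcohol dehydrogenase-like (FvH4_2g14750, −1.83) and alcohol dehydrogenase (FvH4_2g14760, −1.57). Smaller ones were those of CTR1 (FvH4_2g15800, −1.56), bromodomain-containing protein 9-like (FvH4_2g16690, −1.20) and UPF0496 protein 4 (FvH4_2g13680, −1.0).

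Against crowns of the same genotype, the interaction was positive for ABCG22-like (FvH4_2g14330, 3.96), AFP2-like (FvH4_2g18440, 2.86), alcohol dehydrogenase (FvH4_2g14760, 2.63), helicase 39 (FvH4_2g12870, 1.27), the NAC78-like gene FvH4_2g13320 (1.01), helicase 47B (FvH4_2g15280, 0.91) and glutamate-tRNA ligase (FvH4_2g14910, 0.67). It was negative for lysozyme D-like (FvH4_2g18210, −6.74), ATL8-like (FvH4_2g16840, −3.83), thioredoxin M-type (FvH4_2g14900, −2.92), OXI1 (FvH4_2g18040, −1.24) and UPF0496 protein 4 (FvH4_2g13680, −0.72). In cold leaves lysozyme D-like was at 0.334 CPM or below and ATL8-like at 0.448 CPM or below. The sizes of their interactions, also that of lysozyme D-like against ‘Alta’, thus rest on levels near 0. Both comparisons use the same 6 ‘NCGR1363’ leaf libraries, so a gene that appears in both is no independent repeat. OXI1 was at 16.0 to 26.2 CPM in untreated leaves and at 3.98 to 5.47 CPM in untreated crowns, and after the cold it was at 8.70 to 11.6 CPM in leaves and 5.24 to 5.69 CPM in crowns.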

How the results depend on the processing

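The fit with all 6 libraries called 5784 genes. Fits with 1 library removed called from 2673 (without 42 d replicate 3) to 7487 (without 42 d replicate 2), the fit without both libraries that stood apart 9873, and an FDR of 0.01 left 2371. Interval calls (152) ranged from 63 to 187 with 1 library removed and were 242 without both. The genotype interaction (3398) ranged from 1980 to 5594 and the tissue interaction (4144) from 2947 to 6737. Isoform calls (4721) ranged from 999 without 42 d replicate 3 to 5841 without 42 d replicate 2. Other factors, filters, DESeq2, the robust fit and the fit not in legacy form kept the gene and interval counts within 1.5 times, at 5323 to 6898 and 144 to 181, and 1 fit over 12 leaf libraries called 7672 and 207. Replicate numbers were not taken as pairs, as deviations of same-numbered libraries correlated at 0.54, 0.46 and −0.26. Deviations from a mean of 3 libraries depend on each other and cannot decide whether the samples were paired. With the replicate block, 6208 genes, 157 interval genes and 2716 isoforms were called, and the interactions numbered 3607 within genotype, 4786 within tissue and 3410 within time. In the block, the log2 fold change of FvH4_2g13960 was 0.07 in place of −0.05. The remaining reversals were of genes not called with all libraries. Without both libraries that stood apart, laccase-14-like (FvH4_2g12620) was at 0.99 and alcohol dehydrogenase-like (FvH4_2g14750) at −0.14. With 1 library removed, log2 fold changes ranged from −1.48 to 0.48 for FvH4_2g12620, −0.25 to 0.06 for FvH4_2g12690, −0.16 to 0.45 for FvH4_2g13513, −0.34 to 0.54 for FvH4_2g13960, −0.23 to 0.10 for FvH4_2g15440, −0.46 to 0.16 for FvH4_2g15730, −0.02 to 0.30 for FvH4_2g15800 and −1.53 to 0.06 for FvH4_2g16500. The cause of these changes was not tested. Estimates were least precise for genes below 1 CPM, where the median SE was 0.67 on the log2 scale, against 0.17 at 10 to 100 CPM. Any part of depth in this was not tested.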

Other observations

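The tissue interaction was positive for 5 of 13 translation genes, 4 of 15 pentatricopeptide genes and 3 of 13 RNA helicase and splicing genes and negative for none of them, beside 20.8% of all genes called in either direction. The difference of these shares from that of all genes was not tested. Among abscisic acid and cold-responsive genes, 4 of 10 had a negative and none a positive genotype interaction, alcohol dehydrogenase and its neighbour among them, against 17.7% of all genes. These groups were chosen with earlier results of these data known, and the counts share the ‘NCGR1363’ leaf libraries with the results above.

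Green-tissue markers did not move together. Fructose-1,6-bisphosphatase (FvH4_2g11590) rose, the ATP synthase delta chain of chloroplasts (FvH4_2g12490) was at 604, 955 and 955 CPM at 0 h and at 256, 613 and 328 CPM at 42 d (log2 fold change −1.05, edgeR FDR 0.063), and a psbP domain-containing protein (FvH4_2g14791) was at 73.8 to 97.9 CPM and then at 74.0, 165 and 89.8 CPM (FDR 0.42). Beta carbonic anhydrase 5 (FvH4_2g11680) was at 43.4 to 65.3 CPM and then at 35.9, 22.9 and 32.6 CPM (FDR 0.074), and EPIDERMAL PATTERNING FACTOR-like protein 9 (FvH4_2g17950) at 1.73 to 4.54 CPM and then at 4.36, 2.84 and 3.75 CPM (FDR 0.63). At 42 d, replicate 2 was the highest library in the first 3 of these genes and the lowest in the other 2.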
